A study of Mus musculus with 1528 samples.

Results

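Oxidative phosphorylation subunits were followed as a group of genes in single bone marrow–derived macrophages (BMDMs) that received IL4+IL13 with or without TNF. The group was chosen by gene symbol alone: the numbered *Ndufa*, *Ndufb*, *Ndufc*, *Ndufs* and *Ndufv* genes, *Sdha* to *Sdhd*, the *Uqcr*, *Cox4* to *Cox8* and *Atp5* genes, and the mRNAs of the mitochondrial genome. Of 108 matching rows among the 55421 genes of the table, 12 were not protein-coding and 6 were found in under 5% of the wells, which left 90 members. Of these, 77 lie in the nuclear genome (36 in complex I, 4 in complex II, 8 in complex III, 12 in complex IV and 17 in complex V) and 13 in the mitochondrial genome (7, 1, 3 and 2 in complexes I, III, IV and V). All 90 passed the filter on low counts. The symbols leave out a few true subunits, among them *Cox4i1*, *Ndufab1* and *Cyc1*, and take in *Atp5s*, which is not a structural subunit.

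The cells were BMDMs of 2 wild-type C57BL/6 mice (C57BL/6J in the study's methods), grown with M-CSF and stimulated for 24 h with IL4 and IL13, or with IL4, IL13 and TNF, each at 10 ng/ml. Both groups therefore carried IL4 and IL13, and TNF was the only labelled difference. Live cells were sorted singly into 4 plates, 2 per mouse, and Smart-seq2 libraries were made. Each plate held both treatments of 1 mouse in separate blocks of wells, so well position and treatment cannot be told apart. No plate held both mice, so differences between mice cannot be told apart from differences between plates.

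The respiratory chain passes electrons from NADH (complex I) and succinate (complex II) through complex III to oxygen at complex IV, and ATP synthase (complex V) uses the proton gradient that complexes I, III and IV build. Most subunits are encoded in the nucleus and imported, while a small core of complexes I, III, IV and V is transcribed inside the mitochondrion. Macrophages given IL4 are known for high oxidative metabolism and macrophages given inflammatory stimuli for glycolysis.

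After removal of poor wells 1386 of 1524 wells remained, and their counts were summed for each mouse and treatment, giving 4 sums of 162260282 to 179757666 fragments. The mouse is the replicate (n = 2 per treatment). One criterion of the removal was the mitochondrial share, which touches the mitochondrial members. It alone took away 0 and 5 IL4+IL13 wells (mouse 1, mouse 2) and 0 and 3 IL4+IL13+TNF wells. Levels are CPM (counts relative to the scaled library total) after TMM scaling, which corrects for composition. Every log2 fold change is IL4+IL13+TNF over IL4+IL13. Levels per length use the merged exon length of each gene, so rankings per length also depend on the gene annotation. Macrophage markers were abundant in each sum (together 14814 and 16451 CPM with IL4+IL13 and 28154 and 27008 with TNF). The higher sum with TNF came from *Lyz2*, and 5 of the 7 markers had negative log2 fold changes, among them the receptors *Fcgr1* (−1.73, edgeR adjusted p = 0.135, 0.00798 with the mouse as a block) and *Mertk* (−1.22, adjusted p = 0.679, 0.0317 with the block). Dendritic markers summed to 7.65 and 10.3 CPM against 31.1 and 208, mostly through *Ccr7* (0.110 and 0.432 against 21.3 and 194 CPM). Markers of neutrophils, T cells, B cells, mast cells, fibroblasts and erythroid cells summed to at most 5.40 CPM per list in any sum. The part of these marker differences in the values below was not tested.

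The nuclear members held a larger share of the fragments with TNF and the mitochondrial members a smaller one. Of the fragments, the nuclear members held 1.72% (mouse 1) and 1.5% (mouse 2) in the IL4+IL13 sums and 1.89% and 1.87% in the IL4+IL13+TNF sums. The means were 1.61% ± 0.154 and 1.88% ± 0.0105 (SD, n = 2 mice each), so the share was 16.6% larger with TNF and the sums of the treatments did not overlap. For the 13 mitochondrial mRNAs the shares were 2.58% and 2.73% with IL4+IL13 and 2.26% and 2.49% with TNF (means 2.65% ± 0.110 and 2.37% ± 0.159), again without overlap. With 2 mice per treatment an exact two-sided permutation test cannot go below p = 0.333, so no p is given for these shares. Shares are relative to all counted fragments and do not give amounts per cell. They are also not TMM-scaled. As summed TMM-scaled CPM, the mitochondrial members had 25161 and 26222 with IL4+IL13 and 23569 and 25413 with TNF, and the treatments overlapped. The nuclear members had 16825 and 14435 against 19679 and 19144, without overlap. By mean TMM-scaled CPM, *mt-Nd1* (5699 against 5109) and *mt-Cytb* (5103 against 4303) fell most among the 13 mitochondrial mRNAs. Of these 13, 3 had positive log2 fold changes, among them *mt-Co1* (7646 against 8059 CPM).

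Each plate repeated the 2 directions. The nuclear share was 1.71% with IL4+IL13 and 1.80% with TNF on plate 2, 1.74% and 1.95% on plate 3 (both mouse 1), 1.48% and 1.85% on plate 4 and 1.53% and 1.89% on plate 5 (both mouse 2). The mitochondrial share was 2.46% and 2.25%, 2.69% and 2.27%, 2.81% and 2.51%, and 2.65% and 2.46% on the same plates. The log2 ratio of mitochondrial to nuclear fragments was 0.58 (mouse 1) and 0.86 (mouse 2) in IL4+IL13 cells and 0.26 and 0.41 with TNF, a difference of −0.32 and −0.45. The IL4+IL13 cells of mouse 2 had the highest ratio and the lowest nuclear share, and in both measures the mice lay closer together with TNF.

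**Figure D1:**
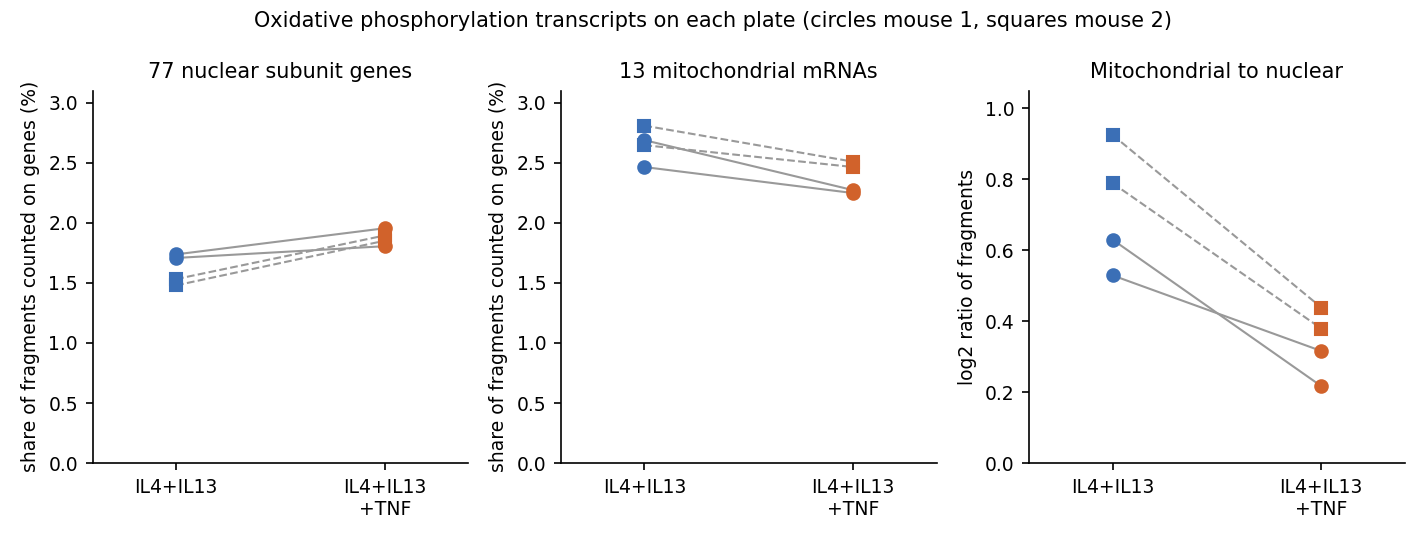
Share of fragments on the 77 nuclear subunit genes (left, percent), on the 13 mitochondrial mRNAs (middle, percent) and the log2 ratio of mitochondrial to nuclear fragments (right), for IL4+IL13 (blue) and IL4+IL13+TNF (orange); each point is the sum of the kept cells of 1 treatment on 1 plate, lines join the treatments of a plate, circles are mouse 1 and squares mouse 2. On all 4 plates the nuclear share is larger and the mitochondrial share and the ratio are smaller with TNF, and the 4 IL4+IL13 ratios, from 0.53 to 0.92, lie above the 4 ratios with TNF, from 0.22 to 0.44.

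Gene by gene, edgeR's quasi-likelihood fit of 17034 genes, with p-values adjusted after Benjamini-Hochberg, called 0 of the 90 members at an adjusted p of 0.05, against 0.00587% of all genes (1 gene). The same fit gave 9 nuclear members an unadjusted p under 0.05, all higher with TNF (3.68% of all genes were), and 0 members such a p on the lower side (4.43% of all genes). With the mouse as a block, which uses the pairing of the treatments within a mouse, 3 nuclear members were called higher (1.94% of all genes were called higher, and 3.82% in either direction): *Cox6a2*, *Cox5a* and *Atp5b*. DESeq2 called 2 of them, *Cox6a2* and *Cox5a* (1.98% of genes with an adjusted p were called higher). Of the mitochondrial mRNAs, 0 were called by edgeR with or without the block, or by DESeq2, and the unadjusted p was under 0.05 for 0 without and 1 (lower, against 11.7% of all genes) with the block. The block gave 42 of the 77 nuclear members such a p, all higher (9.7% of all genes).

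The direction was shared by nearly all nuclear members. A positive log2 fold change was found for 75 of 77 (97.4%), against 50.4% of all genes, with a median of 0.30 against 0.00. In 67 of 77 the level was higher with TNF in both mice (34.3% of all genes), in 58 on all 4 plates (18.7%), and in 56 both sums with TNF lay above both IL4+IL13 sums (18.6%). The median was 0.22 in mouse 1 and 0.38 in mouse 2, and 0.14, 0.27, 0.38 and 0.37 on plates 2 to 5. Without the IL4+IL13 cells of mouse 2 it was 0.18, with 69 of 77 positive. These counts describe the group; its genes are not independent replicates, and no test was run over them.

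**Figure D2:**
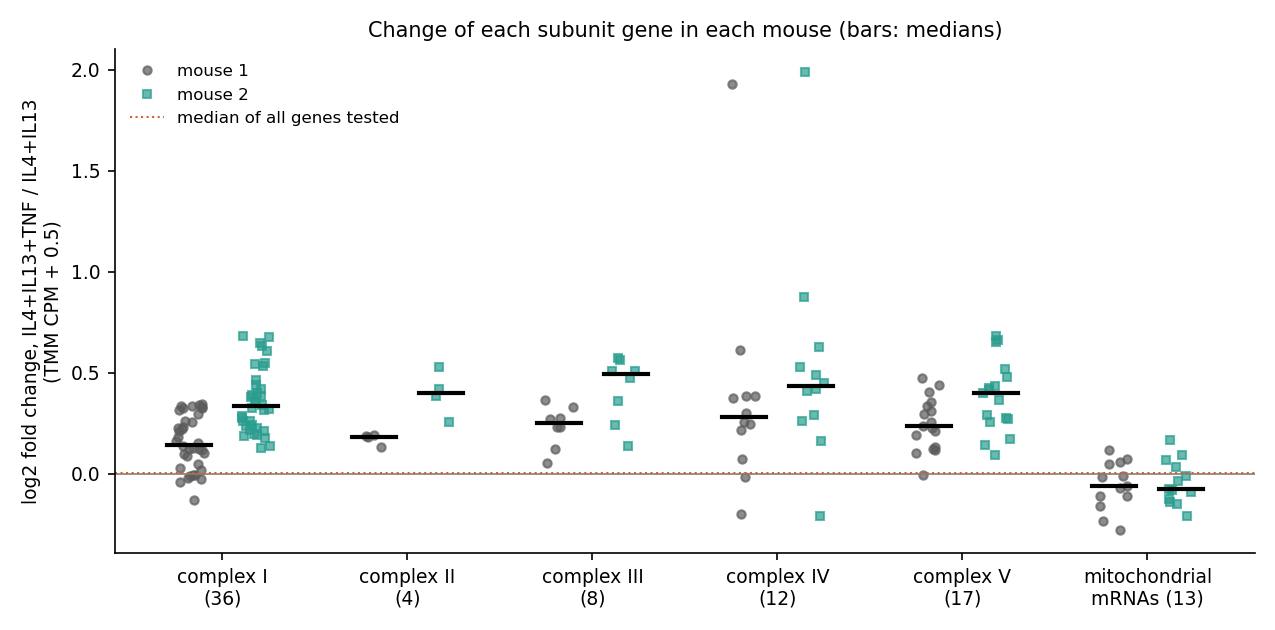
Log2 fold change of IL4+IL13+TNF over IL4+IL13 (TMM CPM + 0.5) for each member, by complex, in mouse 1 (grey circles) and mouse 2 (green squares); black bars are medians, the dotted line is the median of all genes tested, and numbers of genes are in parentheses. Nuclear members of every complex lie mostly above 0 in both mice, the 13 mitochondrial mRNAs scatter around 0 with medians of −0.06 and −0.08, and the 2 points near 2 are *Cox6a2*.

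Complex I, the NADH dehydrogenase, had a median log2 fold change of 0.26 over its 36 nuclear subunits, of which 35 were positive. Its most abundant nuclear subunits per length were the accessory subunits *Ndufa2* (567 CPM per kb) and *Ndufa1* (419 CPM per kb). *Ndufa1* had 157 and 173 CPM with IL4+IL13 and 169 and 203 with TNF (log2 fold change 0.17 ± 0.18 SE). It was higher in both mice and on all 4 plates, though the treatments overlapped. *Ndufa2* had 338 and 300.3 CPM with IL4+IL13 and 329 and 330.0 with TNF (log2 fold change 0.05 ± 0.15 SE), and the treatments overlapped. *Ndufb6*, an accessory subunit of the membrane arm, had the largest value of the complex with 157 and 121 CPM against 198 and 194 CPM (0.50 ± 0.19, edgeR adjusted p = 0.613), though 39.0% of its exon bases are shared with another row. The lowest value, −0.00 for *Ndufb11*, was higher in mouse 2 and lower in mouse 1.

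Complex II, succinate dehydrogenase, is the only complex whose subunits are all nuclear. Its 4 members lay within a narrow range, from 0.22 for *Sdhc* to 0.32 for *Sdhb*, and were higher in both mice. *Sdhb*, the iron-sulfur subunit, had 373 and 279 CPM with IL4+IL13 and 409 and 402 with TNF. *Sdhd*, a membrane anchor and the most abundant member per length (221 CPM per kb), had 265 and 227 CPM against 301 and 296. The TNF sums of both genes lay above both IL4+IL13 sums, by less in mouse 1 than in mouse 2.

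In complex III, the cytochrome bc1 complex, all 8 nuclear subunits were higher in both mice and the median was 0.37. The small subunits *Uqcr10* and *Uqcrb* were the most abundant of these per length (398 and 278 CPM per kb). *Uqcr10* had 211 and 183 CPM with IL4+IL13 and 266 and 270.5 with TNF (0.44 ± 0.16, unadjusted p = 0.040, edgeR adjusted p = 0.578). *Uqcrb* had 223 and 199 CPM against 269 and 284 CPM (0.39 ± 0.16). Neither gene's treatments overlapped.

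Complex IV, cytochrome c oxidase, held the widest spread, from −0.22 to 2.08. It also held 5 of the 9 nuclear members with an unadjusted p under 0.05 (*Cox6a2*, *Cox5a*, *Cox7b*, *Cox8a* and *Cox7a2*). *Cox5a*, a matrix-side subunit (mm10 chromosome 9, 57521274 to 57532426, plus strand), had 283 and 265 CPM with IL4+IL13 and 432 and 486 CPM with TNF. The sums were well apart, and the log2 fold change was 0.75 ± 0.15 (edgeR adjusted p = 0.304, and 0.0311 with the mouse block) and 0.58, 0.64, 0.87 and 0.85 on plates 2 to 5. The gene was found in nearly every cell of both treatments, and the 5% of cells with most fragments gave 12% to 16.6% of its sums. Of its exon bases, 12.8% are shared with another row of the table.

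*Cox6a2*, the isoform of subunit 6a typical of heart and skeletal muscle (mm10 chromosome 7, 128205435 to 128206387, minus strand), was a rare transcript with the largest fold of any member. Its level was 4.72 and 3.64 CPM with IL4+IL13 and 19.4 and 15.9 CPM with TNF, and the values did not overlap. The log2 fold change was 2.08 ± 0.28 (edgeR adjusted p = 0.186, 0.0137 with the mouse block, DESeq2 adjusted p = 1.11e-08), and 1.32, 2.59, 1.33 and 3.19 on the 4 plates. Cells were thinned to 339000 fragments, which left out 136 kept cells of lower depth (25 and 24 with IL4+IL13, 44 and 43 with TNF). Of the thinned IL4+IL13 cells, *Cox6a2* was found in 13.3% (95% exact Clopper-Pearson interval 9.8% to 17.4%) and 5.18% (2.99% to 8.27%). Of the thinned cells with TNF, it was found in 27.1% (22.1% to 32.4%) and 20.9% (16.5% to 25.9%). Intervals cover counting error only, and unthinned shares were 14.3%, 5.71%, 27.7% and 23.2%. A few cells carried most of it: the top 5% of cells gave 86.3% and 99.7% of its fragments with IL4+IL13 and 67.6% and 61.3% with TNF.

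The gene lies inside the span of *Itgad*, on the opposite strand, and shares 10.3% of its exon bases with other rows of the table. Because counting ignored the strand, the 2 cannot be told apart there. *Itgad* itself had 0.0713 to 0.535 CPM in the 4 sums, far below *Cox6a2*. *Itgax*, the integrin CD11c whose gene lies next to *Itgad*, had 8.41 and 23 CPM with IL4+IL13 and 90.5 and 114 CPM with TNF (log2 fold change 2.70, edgeR adjusted p = 0.271, 0.0145 with the block); it was looked up after the *Cox6a2* values were seen.

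Other isoforms of complex IV had smaller differences. *Cox6a1*, the common isoform of the same subunit, was the most abundant nuclear member per length (966 CPM per kb). It had 675 and 597 CPM against 709.7 and 731 CPM (0.18 ± 0.15). By mean CPM of the 4 sums *Atp5b* was higher than *Cox6a1* (885 against 678 CPM). *Cox7a1*, the muscle-type isoform of subunit 7a, was the only nuclear member lower in both mice, at 10.0 and 6.22 CPM against 8.66 and 5.32 CPM (−0.22 ± 0.40), and here the mice differed more than the treatments. *Cox7a2*, its common counterpart, had 272 and 239.6 CPM against 353 and 336 CPM (0.43 ± 0.16, unadjusted p = 0.041, edgeR adjusted p = 0.579). *Cox7a2l* had 255 and 267 CPM against 252 and 298 CPM (0.08 ± 0.16), and the treatments overlapped.

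Among the remaining named nuclear members of complex IV, *Cox8a* and *Cox6b1* were, after *Cox6a1*, the most abundant per length (721 and 755 CPM per kb). *Cox8a*, a small subunit with a single membrane span, had 379 and 373 CPM against 494 and 539.5 CPM (0.46 ± 0.15, edgeR adjusted p = 0.506). *Cox6b1*, which faces the intermembrane space, had 509.6 and 438 CPM against 605 and 586 CPM (0.33 ± 0.15). *Ndufa4*, named for complex I and now placed in complex IV, had 284 and 239.9 CPM against 293 and 275 CPM (0.12 ± 0.17), with overlap. The counts and medians given here follow its symbol and include it in complex I.

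Complex V, ATP synthase, had positive values for all 17 of its nuclear members and a median of 0.28. *Atp5b*, the catalytic beta subunit (mm10 chromosome 10, 128083273 to 128090391, plus strand), had 845 and 584 CPM with IL4+IL13 and 1173 and 938 CPM with TNF. Mouse 1 was above mouse 2 under both treatments, and the log2 fold change was 0.56 ± 0.24 without the block (edgeR adjusted p = 0.646) and 0.58 ± 0.09 with it (adjusted p = 0.0393). *Atp5g3*, one of 3 genes for the same c-ring subunit, had 494 and 457 CPM against 669.7 and 717 CPM (0.54 ± 0.14, edgeR adjusted p = 0.413, 0.0515 with the block). The other c-ring genes were much rarer per length (*Atp5g1* 13.1 and *Atp5g2* 5.88 CPM per kb, against 268 for *Atp5g3*). They were also rarer by mean CPM (64.5 and 9.85 against 584), though *Atp5g1* has a merged exon length of 4912 bases against 2181 for *Atp5g3*. Of the 50-base windows of *Atp5g2*, 36.7% also occur in transcripts of other loci. *Atp5c1*, the gamma subunit of the central stalk, had 454 and 368 CPM against 518 and 450.3 CPM (0.24 ± 0.18), with overlap.

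**Figure D3:**
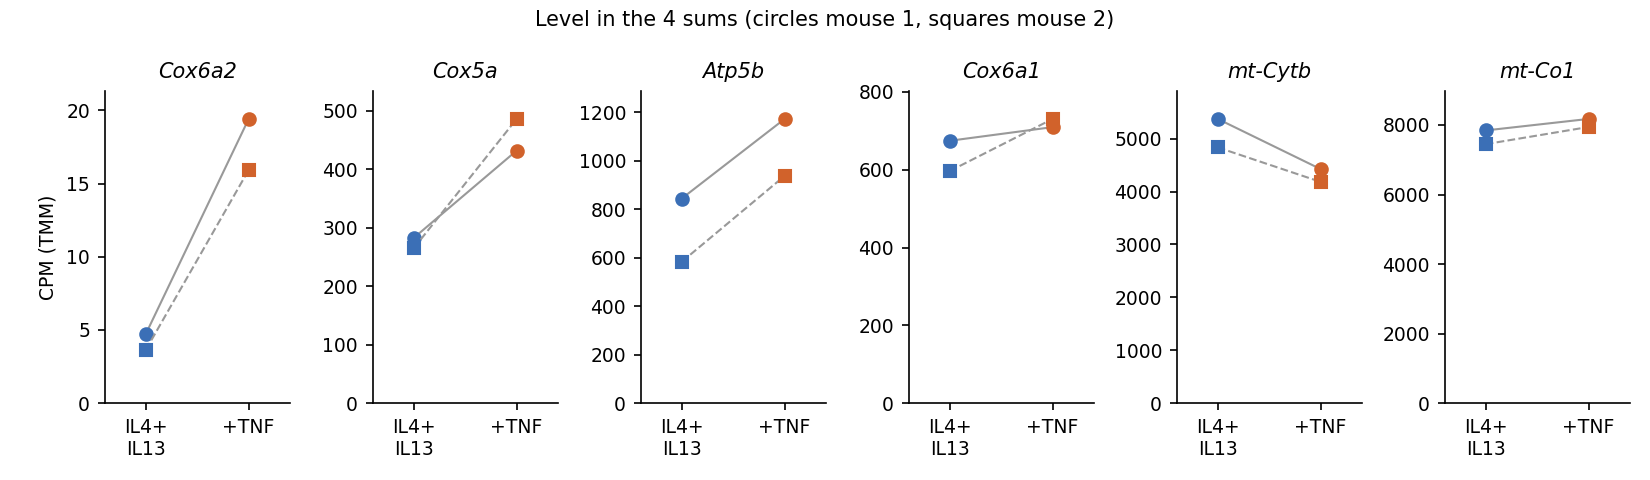
CPM (TMM-scaled, axes from 0) of 6 members in the 4 sums, IL4+IL13 in blue and IL4+IL13+TNF in orange; circles are mouse 1, squares mouse 2, and lines join the treatments of a mouse. *Cox6a2*, *Cox5a* and *Atp5b* are higher with TNF in both mice, *Cox6a1* and *mt-Co1* differ little for their level, and *mt-Cytb* has 5373 and 4834 CPM with IL4+IL13 and 4424 and 4183 CPM with TNF.

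The mitochondrial genome makes its mRNAs from long polycistronic transcripts that are cut at tRNAs, so its 13 members come from few promoters. Here their log2 fold changes ran from −0.25 to 0.15 with a median of −0.07, and 10 of 13 were negative. The sign of this median rested on single sums: it was 0.06 without the IL4+IL13 cells of mouse 2 and 0.06 without the IL4+IL13+TNF cells of mouse 1. In 8 of 13 the level was lower with TNF in both mice (32.4% of all genes). In 3 (*mt-Cytb*, *mt-Nd1* and *mt-Atp6*) both TNF sums lay below both IL4+IL13 sums (17.9% of all genes). In 2 (*mt-Co1* and *mt-Nd5*) both TNF sums lay above both IL4+IL13 sums (18.6% of all genes). *mt-Cytb*, the only mitochondrial subunit of complex III, had 5373 and 4834 CPM with IL4+IL13 and 4424 and 4183 CPM with TNF, lower on all 4 plates (−0.25 ± 0.12, edgeR adjusted p = 0.702, 0.0994 with the block). *mt-Nd1*, a core membrane subunit of complex I, had 5968 and 5431 CPM against 5081 and 5137 CPM (−0.16 ± 0.11).

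The other mitochondrial members were nearer to 0, and *mt-Nd4l* (0.15), *mt-Co1* and *mt-Nd5* lay above it. *mt-Co1*, the catalytic subunit of complex IV and the most abundant member by CPM, had 7843 and 7449 CPM against 8174 and 7943 CPM (0.08 ± 0.10), and *mt-Nd5* had 1625 and 1644 CPM against 1709.7 and 1721 CPM (0.07 ± 0.12). Under library-size scaling both values turned slightly negative (−0.02 each, and −0.02 and −0.03 with limma on mean CPM per cell). *mt-Nd2*, *mt-Nd6* and *mt-Nd4* differed more between mice, which were on separate plates, than between treatments. *mt-Nd2* had 1329 and 1318 CPM in mouse 1 and 2351 and 2153 CPM in mouse 2, with IL4+IL13 and with TNF. *mt-Nd6*, the only member on the light strand, had 977 and 1009 CPM in mouse 1 and 1813 and 1645 CPM in mouse 2, and *mt-Nd4* had 1678 and 1501 CPM in mouse 1 and 2267 and 2209.8 CPM in mouse 2.

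Levels of the mitochondrial mRNAs per length spanned from 15.9 CPM per kb (*mt-Nd4l*) to 5647 CPM per kb (*mt-Nd1*), and the low ones lay next to each other. From *mt-Co2* to *mt-Nd4l*, 6 neighbouring genes (mm10 mitochondrial genome, 7013 to 10173) had 277, 85.6, 146, 94.2, 26.4 and 15.9 CPM per kb in their order along the genome. The 7 others, on both sides of this stretch, had 918 CPM per kb or more. Only uniquely mapped fragments were counted, so sequence shared with another locus bears on these levels. Of all 50-base windows (the read length in the labels), 98% to 100% of those of *mt-Co2*, *mt-Atp6*, *mt-Co3*, *mt-Nd3* and *mt-Nd4l* also occur in annotated nuclear transcripts, as do 62.2% of those of *mt-Nd4*, 51.1% of those of *mt-Co1*, 8.19% of *mt-Nd2*, 7.61% of *mt-Nd5*, and 0% of *mt-Nd1*, *mt-Nd6*, *mt-Cytb* and *mt-Atp8*. For *mt-Atp8*, which overlaps *mt-Atp6*, only annotated transcripts were searched and the nuclear genome between them was not examined here.

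The matches for *mt-Nd2* and *mt-Nd5*, and part of those for *mt-Co1* and *mt-Co2*, were pseudogenes on other chromosomes. For *mt-Co1* to *mt-Nd4*, other than *mt-Atp8*, each gene also had an unprocessed pseudogene in a row on mm10 chromosome 1, 24611535 to 24616197. Compared base by base without gaps, *Gm28661* was identical to *mt-Co2* over 681 bases, *Gm10925* to *mt-Atp6* over 678, *Gm28437* to *mt-Co3* over 783, *Gm10222* to *mt-Nd4l* over 294 and *Gm28439* to the first 876 bases of *mt-Nd4*. *Gm28438* differed from *mt-Nd3* at 1 of 345 bases, T3C, counted from 1 at the 5′ end of the mRNA. The first 60 bases of both are shown because this single base, in capitals, is all that separates them.
mt-Nd3: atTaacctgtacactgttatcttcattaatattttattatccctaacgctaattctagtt
Gm28438: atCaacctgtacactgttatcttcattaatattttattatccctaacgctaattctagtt
The table gives 67871 fragments to *mt-Atp6* and 90659 to *Gm10925* over the 4 sums, and 6283 to *mt-Nd3* and 45570 to *Gm28438*. The levels of the 5 members with nearly all windows elsewhere, and of *mt-Nd4* and *mt-Co1*, are therefore uncertain, and the part of shared sequence in the treatment difference was not tested. The log2 fold changes of the 6 chromosome 1 rows that match *mt-Co2* to *mt-Nd4* ran from −0.10 to 0.24.

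**Figure D4:**
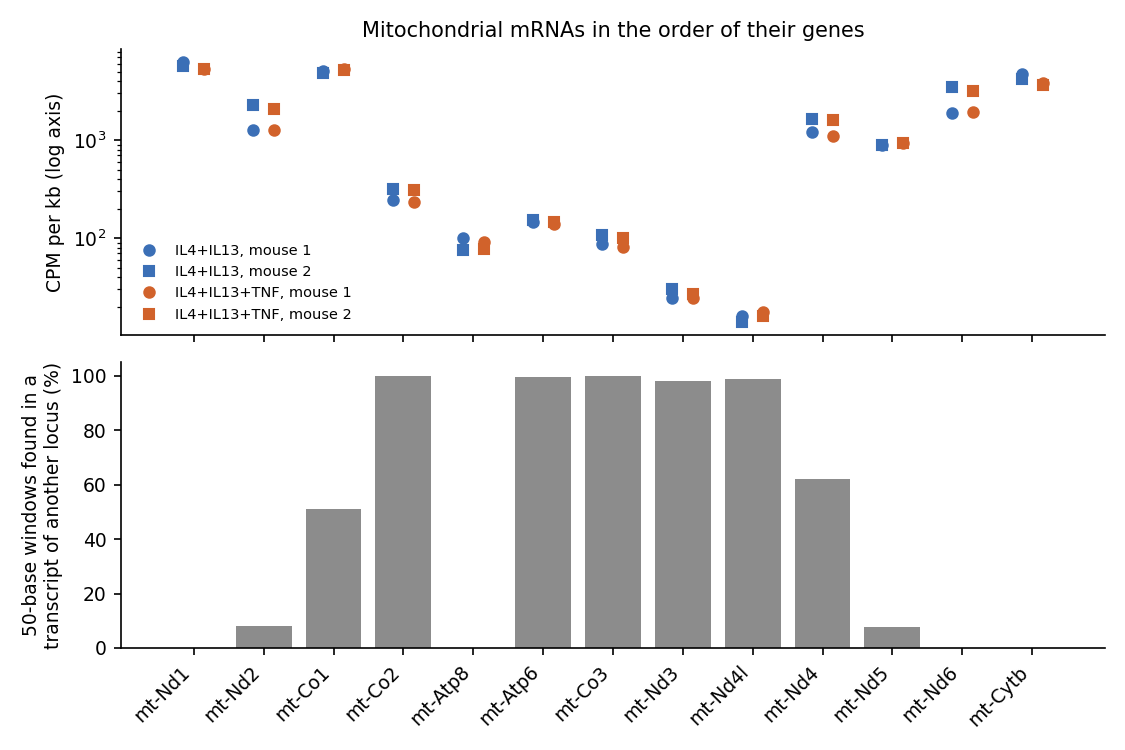
Top, CPM per kb (log axis) of the 13 mitochondrial mRNAs in the order of their genes, for IL4+IL13 (blue) and IL4+IL13+TNF (orange), circles mouse 1 and squares mouse 2; bottom, percent of 50-base windows of each mRNA that also occur in a transcript of another locus. The 6 neighbouring genes from *mt-Co2* to *mt-Nd4l* lie at 277 CPM per kb or below, and 5 of them have 98% or more of their windows elsewhere. *mt-Nd2* and *mt-Nd6* separate by mouse, and so by plate, not by treatment.

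Sharing was less common among nuclear members. Over 10% of the windows occurred elsewhere for 11 of 77, and over 10% of the exon bases were shared with another row for 11. The 55 below 10% in both had a median log2 fold change of 0.28, positive in 54.

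Per cell, the median share of the nuclear members was 1.71% (mouse 1) and 1.47% (mouse 2) in IL4+IL13 cells and 1.85% and 1.80% with TNF. The distributions overlapped widely: the 5th to 95th percentile ran from 1.38% to 2.14% and from 1.02% to 2.01% with IL4+IL13, and from 1.39% to 2.40% and from 1.31% to 2.53% with TNF. The median mitochondrial share was 2.62% and 2.72% with IL4+IL13 and 2.26% and 2.48% with TNF. Among the cells thinned to 339000 fragments, 64 of the 90 members had a fragment in 95% or more of each sum's cells. In under 70% of such cells of some sum were 5 (*Atp5s*, *Cox6a2*, *Cox7a1*, *Ndufv1* and *mt-Nd4l*).

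Across cells, Spearman's rho between the nuclear and the mitochondrial shares was 0.02 (357 cells) and 0.05 (333 cells) with IL4+IL13 and 0.23 (347 cells) and 0.13 (349 cells) with TNF. Of single genes, pairs of mitochondrial mRNAs had median rho values of 0.25 to 0.33 over the 4 sums, and pairs of nuclear members of 0.06 to 0.11. Pairs of 1 nuclear and 1 mitochondrial member had 0.01 to 0.06. Nuclear pairs within a complex (0.05 to 0.10) were no closer than pairs from different complexes (0.06 to 0.11). All genes of a cell share its library and total, and counts without molecular identifiers are noisy, so these values are descriptions only.

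Promoters of the nuclear members were searched, on both strands, for short letters bound by factors known for respiratory genes. RefSeq promoters (GRCm38.p6, 250 bases before to 50 after the start) were found for 63 of the 77 symbols, 68 promoters in all. The NRF1 letters GCGCANGCG occurred in 30.9% of them, against 6.25% of all 32851 promoters of that length, the ETS letters CCGGAAG in 23.5% against 8.86%, and the YY1 letters AAGATGG in 14.7% against 6.34%. In 0 member promoters did the ETS and YY1 letters overlap. The median log2 fold change was 0.26 in genes with the NRF1 letters and 0.33 in those without, 0.30 and 0.33 for ETS, and 0.27 and 0.33 for YY1. *Cox6a2* was not among the genes matched. The 250 bases before the start of *Cox6a1*, the most abundant nuclear member per length, and of *Cox5a* show both cases, with matches in capitals (3 NRF1 matches, of which 2 overlap on opposite strands, and 1 ETS match in *Cox6a1*, none in *Cox5a*). They lie at chr5:115348959-115349208, minus strand, and chr9:57520982-57521231, plus strand.
Cox6a1: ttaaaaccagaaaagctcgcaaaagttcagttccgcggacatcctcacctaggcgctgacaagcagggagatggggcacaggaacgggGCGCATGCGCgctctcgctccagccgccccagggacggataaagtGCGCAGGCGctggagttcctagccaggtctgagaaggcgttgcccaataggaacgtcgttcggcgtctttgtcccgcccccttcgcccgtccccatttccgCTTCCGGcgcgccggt
Cox5a: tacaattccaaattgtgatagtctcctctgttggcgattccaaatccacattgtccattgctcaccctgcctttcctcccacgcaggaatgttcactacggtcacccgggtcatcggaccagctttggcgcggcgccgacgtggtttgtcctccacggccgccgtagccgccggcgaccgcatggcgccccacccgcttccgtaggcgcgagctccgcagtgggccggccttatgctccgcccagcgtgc
A match is a description of the letters and not a site of binding.

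Genes that work with the subunits were read from lists for the same comparison. Of 5 subunits and carriers outside the symbol rule, 4 were measurable and all were positive: *Cox4i1* (949 and 887 CPM against 1006 and 1108 CPM, log2 fold change 0.20), *Cyc1* (0.55), *Cycs* (0.46) and *Ndufab1* (0.42). Complex I assembly factors had a median of 0.23 (12 of 14 positive), and *Ndufaf4* was highest at 0.66 (unadjusted p = 0.027, edgeR adjusted p = 0.513). Assembly factors of complexes II to V had a median of 0.14 (22 of 30 positive), genes for mitochondrial DNA expression 0.13 (7 of 11), and mitochondrial ribosomal proteins 0.18 (65 of 77). The edgeR fit called 0 genes of these lists. Its unadjusted p was under 0.05 for 1, 2, 0 and 2 of them in this order, all higher (3.68% of all genes). The block and DESeq2 each called 1 of 77 mitochondrial ribosomal protein genes (1.94% and 1.98% of all genes were called higher).

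Regulators of mitochondrial genes had a median of −0.16. Of 9, 3 were positive and 4 were lower in both mice (32.4% of all genes). By edgeR with or without the block, or by DESeq2, 0 were called. The edgeR fit without the block gave 2 an unadjusted p under 0.05, both lower (4.43% of all genes). *Pparg*, a nuclear receptor of lipid and alternative-activation genes, had 76.8 and 78.5 CPM with IL4+IL13 and 55.4 and 40.5 CPM with TNF (−0.70, unadjusted p = 0.025, edgeR adjusted p = 0.506). *Ppard* had 3.26 and 7.51 CPM against 1.35 and 2.48 CPM (−1.49, unadjusted p = 0.047, edgeR adjusted p = 0.607). The coactivator *Ppargc1b* had 6.49 and 30.9 CPM against 15.1 and 25.0 CPM, with a wide gap between the mice, and *Nrf1*, *Gabpa* and *Yy1* had −0.16, −0.30 and −0.02.

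Other housekeeping groups also lay above 0. Cytosolic ribosomal proteins had a median of 0.13 (66 of 79 positive) and glycolysis genes 0.47 (13 of 15 positive), with 0 called by edgeR or DESeq2 in either list, 0 and 3 with an unadjusted p under 0.05 on the higher side (3.68% of all genes), and 3 of 15 glycolysis genes called with the block (1.94%). The nuclear subunits, at 0.30, lay between these lists, and the differences among the lists were not tested.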

How the data were processed

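Single BMDMs of 2 mice were profiled by Smart-seq2. According to the study's methods and the submitters' processing notes, the authors aligned 50-base paired reads with GSNAP to mm10 and counted uniquely mapped fragments per Ensembl gene with featureCounts 1.6.3, without strand and without molecular identifiers. The deposited values are raw counts per gene and well. Of the columns, 8 matched no sample label and were not used, and 92 spike-in rows were left out.

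Wells were removed when, within a plate, total fragments or genes found were low, or the mitochondrial or spike-in share high, by over 3 scaled median absolute deviations. Kept wells had a median of 472319.5 fragments. The 4 sums of counts, one for each treatment of each mouse, were compared in edgeR 4.0.16 (quasi-likelihood, TMM, low-count filter, Benjamini-Hochberg over 17034 genes, R 4.3.3). The fit was also run on simulated counts, which held no differences between mice and so cannot show how it fares with them. Replicate numbers mark the same mouse, and same-mouse sums deviated together (r = 0.583 across genes), so the fit with the mouse as a replicate block is given where it changes a call. Alternatives were DESeq2 1.42.0, limma 3.58.1 on log2(mean CPM + 1), other scalings and filters, and leaving out each sum. Fold changes per mouse and plate added 0.5 CPM. The genes named were all mitochondrial mRNAs, in each complex the 2 nuclear members most abundant per length and those with the largest rise and fall in the same direction in both mice, alternative subunits, and members past the threshold. *Cox5a*, called by a fit other than the main one, and *Cox7b*, *Ndufb11*, *Sdhc*, *Atp5g1* and *Atp5g2* were added after their values were seen. S6 kinases, a binding protein and pseudogene symbols were taken out of the ribosomal protein list after its values were seen. The members, gene lists and markers were chosen with earlier results of these data known. Shared 50-base windows were searched among GENCODE transcripts of GRCm38.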

Additional observations from a re-analysis of the deposited data

How the results depend on the processing

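With the mouse as a replicate block, which pairs the treatments of a mouse, 3 nuclear subunits were called (*Cox6a2*, log2 fold change 2.08, *Atp5b*, 0.58, and *Cox5a*, 0.74), and with DESeq2 2 (*Cox6a2*, 2.07, and *Cox5a*, 0.74), against 0; the pairing changed no other call among the members. The mitochondrial median of −0.07 was −0.17 with library sizes, −0.16 with limma on mean CPM per cell, −0.0164 without a cell filter, and between −0.17 and 0.0606 when a sum was left out. The difference in mitochondrial share was −0.175 percentage points without a cell filter, against −0.280. The nuclear median of 0.30 was 0.21 with library sizes (69 of 77 positive) and 0.22 with limma (70 of 77 positive). In these 2 settings the median of all genes was −0.09 and −0.05. Signs turned with library sizes and with limma for *mt-Co1* (−0.0163 and −0.0229), *mt-Nd5* (−0.0223 and −0.0268), *Ndufa2* (−0.0457 and −0.0561) and *Cox7a2l* (−0.0149 and −0.0218), and without a cell filter for *mt-Atp8* (0.00762), *mt-Nd3* (0.00735) and *mt-Nd4* (0.00933). *Ndufb11* was 0.000728 when the mitochondrial share was no criterion and 0.111 without a cell filter. Leaving out a sum gave ranges across 0 for *mt-Nd2* (−0.48 to 0.39), *mt-Nd6* (−0.47 to 0.44), *mt-Nd4* (−0.39 to 0.16), *mt-Co2* (−0.25 to 0.16), *mt-Co3* (−0.27 to 0.0587), *mt-Nd3* (−0.24 to 0.0635), *mt-Atp8* (−0.23 to 0.16), *Ndufa2* (−0.0345 to 0.13), *Cox7a1* (−0.61 to 0.16), *Ndufb11* (−0.0884 to 0.0861) and *Cox7a2l* (−0.0480 to 0.19). The causes were not tested. Most values kept their direction and their side of the threshold, or for counts and medians moved little: 318 of the values under the other settings and 141 with a sum left out. Under the other settings 13 values reversed their sign, 6 moved further and 5 crossed the threshold to be called. With a sum left out 21 reversed and 2 moved further. When a sum was left out, the remaining one was assumed to vary like the other treatment. With 2 mice per treatment, differences near the spread between mice were not detectable in the edgeR fit without the block. Small differences could be missed with the block as well, and rare transcripts such as *Cox6a2* rested on few cells.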

Other observations

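The ribosomal RNAs of the mitochondrial genome, which belong to no complex, separated by mouse, and so by plate. *mt-Rnr1*, the small ribosomal RNA, had 597 and 737 CPM in mouse 1 and 1671 and 1576 CPM in mouse 2, in IL4+IL13 cells and in IL4+IL13+TNF cells. *mt-Rnr2*, the large one, had 3860.2 and 4194 CPM in mouse 1 and 8541 and 6861 CPM in mouse 2. Their log2 differences between treatments were 0.03 and −0.17, against differences between mice of 1.48 and 1.15 with IL4+IL13.

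A well on each of plates 3, 4 and 5 was labelled IL4+IL13, but its title had another form than the rest, with no mouse number, and it entered no comparison. There were 4 such samples, and the one on plate 2 had no column of counts. These 3 wells held 279461, 354874 and 87198 fragments, of which the nuclear subunits took 1.41%, 1.26% and 0.761% and the mitochondrial mRNAs 1.92%, 1.87% and 1.08%. Of the 90 members 86, 89 and 80 were found in them.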
